A study of Mus musculus with 26 samples.

Results

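The comparison set mouse blood cell lines of one origin against lines of another while both were kept with doxycycline (dox). Lines derived from long-term hematopoietic stem cells (LT-HSC) with dox at 48 h (n = 2 arrays, lines B6-2 and B6-3) were compared with lines derived from granulocyte macrophage progenitors (GMP) with dox at 48 h (n = 4 arrays, lines B6-2, B6-3, F6-6 and B6-1), so 6 of the 26 arrays of the series were chosen by their titles. Gene expression was measured on an Affymetrix gene array, and values are log2 signals as deposited by the authors. All cells were of strain C57BL/6, and the lines had been immortalized in vitro and were collected from liquid culture. For reference, the same origins were read without dox at 48 h (n = 3 LT-HSC-derived and n = 3 GMP-derived arrays), the LT-HSC-derived lines were also read at 72 h with dox (n = 3), and LT-HSC (n = 4) and GMP (n = 4) sorted from wild-type bone marrow served as the normal counterparts. The labels call the replicates biological and give each cultured array a line name. Whether LT-HSC-derived and GMP-derived lines of one name came from one animal, whether a line is a single clone, and whether the hours count from adding or withdrawing dox are points that the sources used here do not give.

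An LT-HSC is a rare cell that renews itself and can give rise to all blood lineages, and a GMP is a later progenitor committed to neutrophils and monocytes. MLL-AF9, the fusion named in the title of the series, joins the start of KMT2A (MLL) to the end of MLLT3 (AF9) and causes acute myeloid leukaemia. It holds on genes such as the HOXA cluster and Meis1, and in inducible models dox switches the fusion on. Both kinds of cell can be transformed by it, and the transformed cells grow as immature myeloid cells whatever their source.

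The markers of the source cells were read first. Mpo, the myeloperoxidase of primary granules, was at 11.74 and 11.64 log2 in LT-HSC-derived lines with dox, against 11.75, 11.72, 11.69 and 11.57 in GMP-derived lines with dox. Sorted LT-HSC averaged 8.35 and sorted GMP 12.19 for Mpo, so lines of both origins lay near the sorted GMP. The stem cell surface receptors Slamf1 and Procr averaged 3.29 and 4.88 in LT-HSC-derived lines and 3.42 and 4.77 in GMP-derived lines, against 6.56 and 6.68 in sorted LT-HSC. The mean of 22 HSC genes was 6.12 to 6.19 per array in LT-HSC-derived lines and 5.69 to 5.93 in GMP-derived lines, while sorted LT-HSC gave 7.75 to 7.89 and sorted GMP 5.76 to 5.86. In RNA, LT-HSC-derived lines with dox thus lay far below sorted LT-HSC for the surface receptors Slamf1 and Procr. Protein was not measured here, and the name LT-HSC-derived is used for their origin. The means of the listed genes of B cells (5.14 to 5.19 per array in LT-HSC-derived and 4.96 to 5.19 in GMP-derived lines), of T and NK cells (4.54 to 4.58 and 4.48 to 4.60) and of stroma and endothelium (5.47 to 5.52 and 5.38 to 5.48) lay below the array medians of 5.81 to 5.91 in all 6 arrays. Not every member did: 8 of 11, 12 of 13 and 9 of 13 genes had group means below the median of all values (5.86) in both origins. Xist was near 10.8 in both groups (10.81 and 10.96 in LT-HSC-derived, 10.75 to 10.86 in GMP-derived lines) and the Y-linked Eif2s3y between 2.66 and 2.79 in all 6 arrays. As in any bulk measurement, fewer cells of a kind and less RNA per cell cannot be told apart.

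Of 19937 genes, 421 differed between the origins at an adjusted p under 0.05 (called; limma, Benjamini-Hochberg over all genes), which is 2.11% of those tested. In LT-HSC-derived lines 233 were higher (1.17%) and 188 lower (0.943%), and the median over all genes was -0.01 log2. Among them, 88 were higher and 36 lower by at least 1 log2, that is 2-fold. The arrays of the 2 groups did not overlap in 419 of the called genes. A small p favours such genes, so this is no separate support for the calls, and the share over all genes is not given here. With only 2 LT-HSC-derived arrays, single arrays carried weight: 237 genes were called without line B6-2 and 110 without line B6-3 of that origin. A core of 84 genes (0.421%; 57 higher and 27 lower) was called in the full fit and in each of the 6 fits that left out 1 array.

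Single arrays of one group also differed from each other. Line B6-2 and line B6-3 of LT-HSC origin were apart by at least 1 log2 in 56 genes. Pairs of GMP-derived arrays were apart by that much in 32 to 139 genes, and the 3 pairs with line F6-6 had 124, 135 and 139. Pairs of 1 LT-HSC-derived and 1 GMP-derived array had 144 to 314, more than any pair within an origin. The same-named pairs had 144 genes for B6-2, the fewest of the 8 pairs between origins, and 231 for B6-3, as many as the fewest of the other pairs with LT-HSC-derived B6-3.

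The largest difference was in a long noncoding RNA, I730030J21Rik, which is named here after its values were seen because the naming rule leaves out such symbols. It was at 10.40 and 10.53 in LT-HSC-derived lines, against 4.36, 5.08, 4.48 and 4.81 in GMP-derived lines, a difference of 5.78 ± 0.26 log2 (SE; adjusted p = 4.99e-13). It was as far apart without dox (10.43 on average in LT-HSC-derived and 4.37 in GMP-derived lines). Sorted LT-HSC and sorted GMP averaged 10.18 and 9.47, so the low level was seen in the GMP-derived lines and not in sorted GMP.

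The genes with the largest differences in the core of 84 were read in full, 12 higher and 12 lower in LT-HSC-derived lines (the plot of leading genes by array). The choice of these genes fixed that their groups do not overlap and that their calls held without each of the 6 arrays. In the other 12 of 18 alternative settings none of the 24 calls was lost. The choice of genes also fixed that they pass the dim filter, which is among these settings. All of these settings reuse arrays of the main fit, so they are no independent support. Among the higher genes were receptors of the cell surface. Il18r1, the ligand-binding chain of the interleukin 18 receptor, was at 7.04 and 8.39 in LT-HSC-derived lines, against 4.27, 4.19, 4.24 and 4.45 in GMP-derived lines (3.43 ± 0.34, adjusted p = 7.97e-07). Flt3, the receptor tyrosine kinase of early lymphoid and myeloid progenitors, was at 7.85 and 8.55 in LT-HSC-derived and at 5.56, 5.27, 5.78 and 4.98 in GMP-derived lines (2.80 ± 0.31, adjusted p = 3.72e-06). Both genes lay above every GMP-derived array in both LT-HSC-derived lines. Havcr2 (TIM-3), an immune receptor that in human acute myeloid leukaemia marks leukaemic stem cells, was higher by 2.21 ± 0.28, with 6.15 and 7.26 in LT-HSC-derived lines and 4.11 to 4.74 in GMP-derived lines. Cd96, another receptor used as such a marker in human leukaemia, was higher by 2.12 ± 0.21 (6.59 and 7.29 in LT-HSC-derived, 4.61 to 5.04 in GMP-derived lines). The C-type lectin gene Clec4b2 was at 7.79 and 8.74 in LT-HSC-derived lines, against 5.82, 6.14, 4.97 and 4.97 in GMP-derived lines (2.79 ± 0.29, adjusted p = 1.99e-06). Clec4b2 and Chil3 have close copies in the mouse genome, and cross-hybridisation between copies was not tested.

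**Figure D1:**
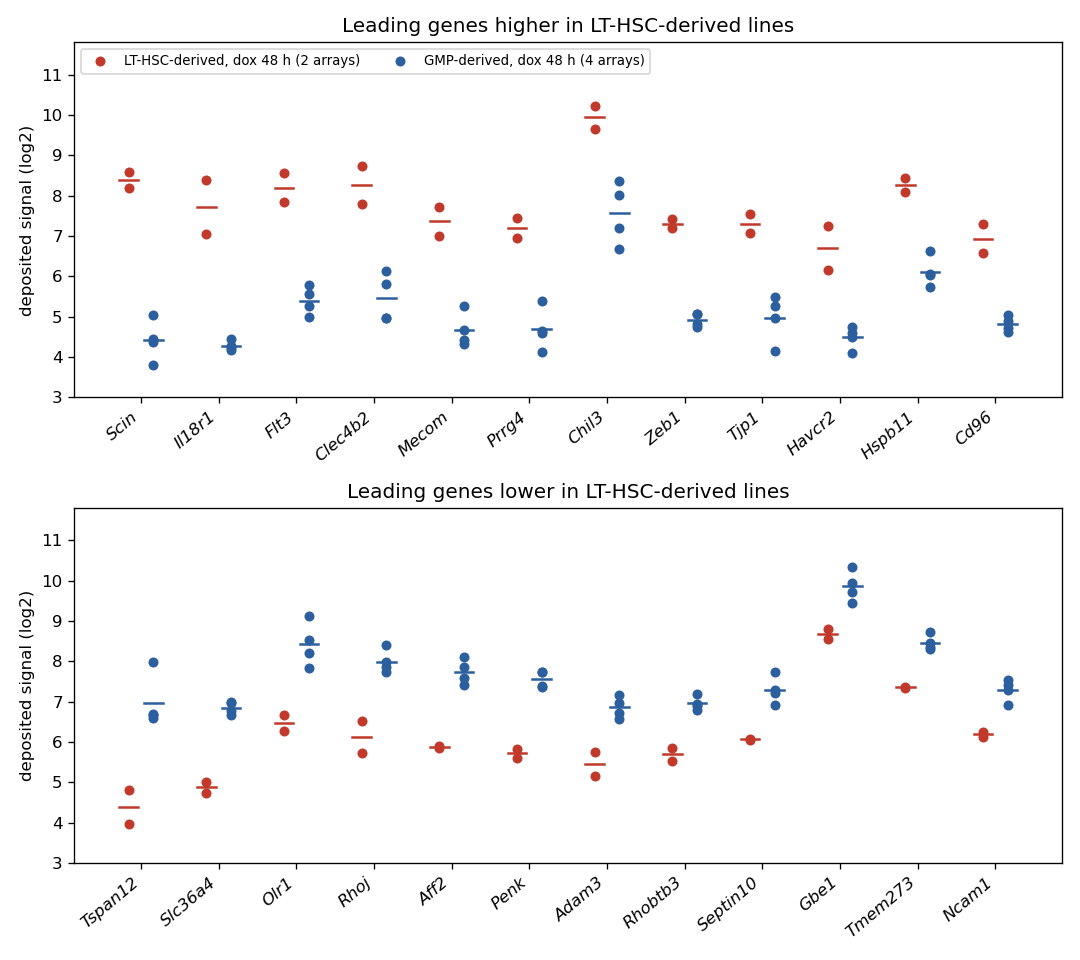
Deposited signal (log2) of the 24 leading genes in single arrays with dox at 48 h, LT-HSC-derived lines (red, 2 arrays) left of GMP-derived lines (blue, 4 arrays), with a bar at each group's mean. Genes were chosen among those whose groups do not overlap, and the widest gap between means is that of Scin, 8.38 and 4.41.

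Genes of the cytoskeleton and of cell junctions were among the largest as well. Scin encodes scinderin, an actin-severing protein, and was at 8.18 and 8.58 in LT-HSC-derived lines, against 5.04, 4.37, 3.80 and 4.46 in GMP-derived lines (3.97 ± 0.26, adjusted p = 1.72e-09). Tjp1, the tight junction scaffold ZO-1, was higher by 2.34 ± 0.33, with 7.06 and 7.56 against 4.14 to 5.50. Hspb11, a protein of the transport machinery of cilia, was higher by 2.15 ± 0.23, with 8.10 and 8.44 against 5.74 to 6.64. Prrg4, a membrane protein with a Gla domain, was higher by 2.51 ± 0.25, with 6.94 and 7.46 against 4.13 to 5.38. Chil3, a chitinase-like protein that myeloid cells secrete, was at 9.66 and 10.23 in LT-HSC-derived lines and spread more widely, from 6.68 to 8.36, in GMP-derived lines (2.38 ± 0.37, adjusted p = 0.000408).

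Both leading transcription factors were zinc finger proteins. Zeb1, a repressor that binds E-box motifs and drives epithelial-mesenchymal transition, was at 7.19 and 7.41 in LT-HSC-derived lines, against 4.82, 5.07, 5.08 and 4.74 in GMP-derived lines (2.37 ± 0.16, adjusted p = 1.91e-09). Mecom (EVI1), a stem cell factor that is also a target of MLL fusions, was at 7.01 and 7.72 in LT-HSC-derived lines, against 5.26, 4.43, 4.32 and 4.68 in GMP-derived lines (2.69 ± 0.25, adjusted p = 5.36e-07). A second probe set of Mecom gave 1.59 ± 0.22. In 10 of the 12 leading higher genes, all but Chil3 and Hspb11, the GMP-derived mean lay below the lowest array median of 5.81. No background level was set for these signals, and the true size of such differences is uncertain.

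Mecom and the interleukin 18 receptor pair are shown by their promoter windows, because Mecom has separate transcription starts and Il18r1 and Il18rap are neighbours that were higher together. Sequences are from RefSeq (GRCm38.p6) and span a transcription start, mostly upstream of it, 5′ to 3′ on the gene's strand, with any match to the E-box CACCTG (or its reverse complement CAGGTG), a motif that ZEB proteins bind, in capitals.
Mecom, upstream start, chr3:30509710-30510009, minus strand: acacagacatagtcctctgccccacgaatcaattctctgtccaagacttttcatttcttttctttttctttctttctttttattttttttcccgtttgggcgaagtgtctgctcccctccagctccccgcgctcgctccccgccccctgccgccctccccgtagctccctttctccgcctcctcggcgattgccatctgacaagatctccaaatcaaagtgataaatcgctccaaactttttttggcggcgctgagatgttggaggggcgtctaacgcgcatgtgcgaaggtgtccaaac
Mecom, downstream start, chr3:30013155-30013454, minus strand: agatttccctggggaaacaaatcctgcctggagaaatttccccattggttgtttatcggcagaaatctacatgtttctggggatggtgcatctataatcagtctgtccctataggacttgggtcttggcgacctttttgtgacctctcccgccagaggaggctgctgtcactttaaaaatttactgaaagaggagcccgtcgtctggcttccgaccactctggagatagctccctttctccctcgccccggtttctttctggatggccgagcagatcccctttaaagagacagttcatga
Il18r1, the downstream window of 3, chr1:40465756-40466055, plus strand: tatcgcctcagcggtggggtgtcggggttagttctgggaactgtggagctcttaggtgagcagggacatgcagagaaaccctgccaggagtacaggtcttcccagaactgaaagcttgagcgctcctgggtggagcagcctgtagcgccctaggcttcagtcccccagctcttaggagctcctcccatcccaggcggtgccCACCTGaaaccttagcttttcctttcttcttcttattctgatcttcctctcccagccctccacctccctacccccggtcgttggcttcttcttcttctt
Il18rap, chr1:40515112-40515411, plus strand: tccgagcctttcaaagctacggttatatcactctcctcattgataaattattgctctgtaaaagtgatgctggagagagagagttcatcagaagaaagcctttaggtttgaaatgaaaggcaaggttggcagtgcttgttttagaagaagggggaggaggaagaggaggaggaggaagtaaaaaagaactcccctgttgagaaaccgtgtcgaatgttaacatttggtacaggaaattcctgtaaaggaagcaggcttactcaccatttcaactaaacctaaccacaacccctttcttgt
The E-box was in the printed Il18r1 window 49 bases before the start and in neither Mecom window nor that of Il18rap. Of the other 2 windows of Il18r1, 1 held it 10 bases after the start and 1 did not hold it, and the printed window was chosen with its match known. It was in 20.2% of all 32851 promoter windows in the table, in 21.2% of 245 windows of genes higher in LT-HSC-derived lines and in 16.3% of 215 windows of genes lower there. A match is a description of the letters only.

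Il18rap, the accessory chain of the same receptor, was at 8.56 and 8.88 in LT-HSC-derived lines, against 7.01, 7.26, 6.82 and 7.41 in GMP-derived lines (1.59 ± 0.15, adjusted p = 5.71e-07). Of the other genes within 4 places of Il18r1 on chromosome 1, the kinase gene Map4k4 was also higher, by 1.56 ± 0.17. The interleukin 1 receptor genes Il1r2 (0.96, adjusted p = 0.126) and Il1rl2 (-0.28, adjusted p = 0.92) and the sodium exchangers Slc9a4 and Slc9a2 (-0.01 and -0.00) did not pass. The neighbours of Clec4b2 did not pass either: the lectin genes Clec4a2 and Clec4n were at 0.62 and 0.14, and its close copy Clec4b1 at 0.04. Clec4a2 did pass the test of whether the origin difference depends on dox, described later (1.85 ± 0.36, adjusted p = 0.0215).

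The 12 leading lower genes belonged to several families. Tspan12, a tetraspanin, was at 4.80 and 3.98 in LT-HSC-derived lines, against 6.66, 6.69, 6.58 and 7.97 in GMP-derived lines (-2.59 ± 0.31, adjusted p = 1.49e-05). Slc36a4, an amino acid transporter, was at 5.00 and 4.75 in LT-HSC-derived and 6.67, 6.76, 6.98 and 6.97 in GMP-derived lines (-1.97 ± 0.21, adjusted p = 3.3e-06). Olr1, the scavenger receptor for oxidised low density lipoprotein, was lower by -1.96 ± 0.28 (6.67 and 6.26 against 7.84 to 9.12). For each of these genes both LT-HSC-derived arrays lay below every GMP-derived array, as the choice of leading genes required.

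Penk, the precursor of enkephalins, differed by -1.84 ± 0.23, with 5.83 and 5.60 in LT-HSC-derived lines and 7.36 to 7.74 in GMP-derived lines. Aff2 belongs to the AFF family, of which other members are partners of MLL fusions, and differed by -1.87 ± 0.26 (5.85 and 5.90 against 7.42 to 8.11). Rhoj, which encodes a small GTPase, differed by -1.87 ± 0.23, and Rhobtb3 by -1.26 ± 0.18. Cytoskeletal Septin10 differed by -1.23 ± 0.22, the glycogen branching enzyme Gbe1 by -1.18 ± 0.18, and the adhesion molecule Ncam1 by -1.10 ± 0.14 (6.12 and 6.26 in LT-HSC-derived lines, 6.91 to 7.52 in GMP-derived lines). Adam3, an ADAM-family gene known from sperm, was at -1.40 ± 0.17. Tmem273 was at -1.10 ± 0.15, which came to -0.67 with the LT-HSC-derived arrays of 72 h in place of those of 48 h. In 5 of the 12 genes (Tspan12, Slc36a4, Penk, Adam3 and Rhobtb3) the LT-HSC-derived mean lay below the lowest array median.

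The genes that MLL fusions are known to hold on were read as separate lists. None of 10 measured HOXA genes and none of 9 HOXB genes was called, with medians of -0.07 and -0.09 log2. Hoxa9 was at 7.41 and 7.44 in LT-HSC-derived lines, against 7.57, 7.44, 7.46 and 7.46 in GMP-derived lines (-0.06 ± 0.10, adjusted p = 0.942). Meis1, the partner of HOXA proteins, was at 9.16 and 9.47 in LT-HSC-derived and at 9.13, 8.93, 9.33 and 8.95 in GMP-derived lines (0.23 ± 0.19, adjusted p = 0.804). A p that misses the threshold does not show that levels are equal, and for both genes the arrays of the 2 groups lie close together.

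Of 17 listed MLL fusion targets, 4 were higher (Flt3, Mecom, Id2 and Bcl2) and 1 lower (Jmjd1c), and the list's median was -0.02. The survival gene Bcl2 was at 9.08 and 9.19 in LT-HSC-derived lines, against 8.32, 8.48, 8.28 and 8.29 in GMP-derived lines (0.80 ± 0.12, adjusted p = 0.000173). Id2, an inhibitor of basic helix-loop-helix factors, was at 7.63 and 8.17 in LT-HSC-derived and 5.11 to 7.13 in GMP-derived lines (1.56 ± 0.41, adjusted p = 0.0483), a call that 8 of 18 alternatives ended. The demethylase family gene Jmjd1c was at 9.91 and 9.89 in LT-HSC-derived and 10.17 to 10.35 in GMP-derived lines (-0.33 ± 0.08, adjusted p = 0.0389), a call that was lost with 1 array left out (adjusted p up to 0.37). Pbx3, a HOX cofactor, was at 6.58 and 6.15 in LT-HSC-derived lines and spread from 6.47 to 8.71 in GMP-derived lines, the highest being line F6-6 (-1.19 ± 0.33, adjusted p = 0.0672).

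None of 12 listed genes for MLL, its partners and its cofactors was called, but the list does not hold every known partner. Outside it, and named after their values were seen, Aff3 of the AFF family and Tet1 were higher in LT-HSC-derived lines. Aff3 differed by 2.00 ± 0.14 (adjusted p = 4.6e-09) and Tet1 by 1.88 ± 0.18 (adjusted p = 5.36e-07). Kmt2a was at 8.86 and 8.97 in LT-HSC-derived and 8.49 to 8.83 in GMP-derived lines (0.26 ± 0.09, adjusted p = 0.173), and Mllt3 at 7.94 and 7.89 in LT-HSC-derived and 7.35 to 7.87 in GMP-derived lines (0.32 ± 0.13, adjusted p = 0.329). The arrays of each group do not overlap for either gene, but the differences did not pass. With the LT-HSC-derived arrays of 72 h set against the GMP-derived arrays of 48 h, Mllt3 was 0.46 higher (adjusted p = 0.02). The 2 origins differ in time there. Which part of Kmt2a or Mllt3 the probe sets cover, and so whether they read the fusion, was not analysed here. The transcription factors Tcf4 (0.09 ± 0.13, adjusted p = 0.93) and Erg (0.27 ± 0.17, adjusted p = 0.704) did not pass.

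The 35 gene lists together held 469 different measured genes, of which 25 were higher and 7 lower in LT-HSC-derived lines. That is 6.82% of them, against 2.11% of all genes, for lists chosen with earlier results of these data known. There was no call in 16 lists, whose medians ran from -0.16 to 0.11. These included B cell, T and NK cell, stromal, monocyte, dendritic, interferon, p53, glycolysis, cholesterol, ribosomal and imprinted genes (the plot of gene lists).

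**Figure D2:**
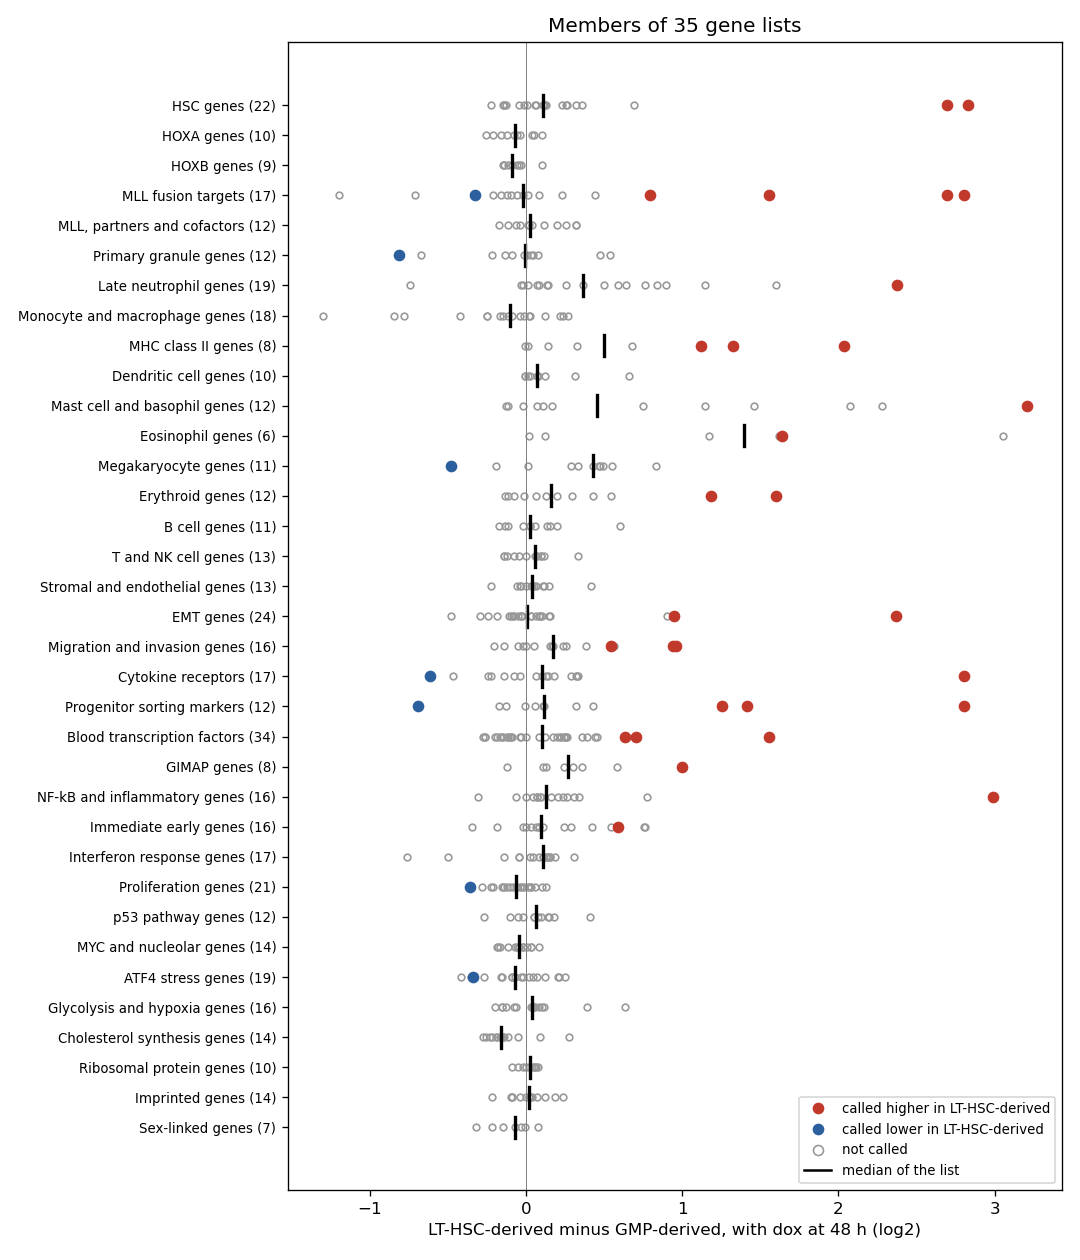
Difference at 48 h with dox between LT-HSC-derived lines and GMP-derived ones (log2) for the measured members of 35 gene lists, with the number measured in brackets. Filled points are called (red higher, blue lower in LT-HSC-derived lines), open points are not, and the black bar is the list's median. The HOXA, HOXB and ribosomal lists lie close to 0, and the eosinophil list has the highest median (1.40).

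Among stem cell genes, 2 of 22 were higher and none lower (median 0.11), namely Mecom and Angpt1. Angpt1, a vascular growth factor that LT-HSC express, was at 8.32 and 8.13 in LT-HSC-derived lines, against 7.11, 5.33, 4.85 and 4.31 in GMP-derived lines (2.83 ± 0.52, adjusted p = 0.00252). Its call was lost when only these 2 groups were fitted (adjusted p = 0.0742) and without either LT-HSC-derived array (adjusted p = 0.0528 and 0.0561). Sorted LT-HSC averaged 11.21 and sorted GMP 6.68 for Angpt1. The other stem cell genes stayed within -0.22 (Tek) and 0.69 (Gata2).

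Genes that sorters use to separate progenitors gave 3 higher and 1 lower of 12 (median 0.11), Flt3 being the first. Cd34, a sialomucin of progenitors, was at 9.13 and 9.18 in LT-HSC-derived lines, against 7.78, 8.17, 8.41 and 6.61 in GMP-derived lines (1.42 ± 0.29, adjusted p = 0.00593). The tumour necrosis factor receptor family member Cd27 was at 7.52 and 7.75 in LT-HSC-derived and 6.08 to 6.69 in GMP-derived lines (1.26 ± 0.15, adjusted p = 1.37e-05). The Fc receptor gene Fcgr3, whose protein is part of the gate for GMP, was at 7.85 and 7.93 in LT-HSC-derived and 8.27 to 8.75 in GMP-derived lines (-0.69 ± 0.14, adjusted p = 0.00545). The calls of Cd34 and Fcgr3 ended without either LT-HSC-derived array, with adjusted p between 0.0655 and 0.143, and that of Cd34 also when only these groups were fitted (adjusted p = 0.186).

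Antigen presentation genes were higher in LT-HSC-derived lines for 3 of 8 MHC class II genes, with none lower (median 0.50). H2-Aa, the alpha chain of the class II molecule, was at 6.62 and 6.66 in LT-HSC-derived lines, against 4.73, 4.74, 4.72 and 4.23 in GMP-derived lines (2.03 ± 0.23, adjusted p = 6.93e-06). H2-Ab1, its beta chain, was at 7.02 and 6.85 in LT-HSC-derived and 5.69 to 5.89 in GMP-derived lines (1.12 ± 0.26, adjusted p = 0.0192), and H2-Ob, a chain of the peptide-loading regulator, at 7.10 and 7.94 in LT-HSC-derived and 6.13 to 6.25 in GMP-derived lines (1.33 ± 0.20, adjusted p = 0.000357). The class II master regulator Ciita lay below the lowest array median of 5.81 in both (5.33 and 5.54 in LT-HSC-derived, 5.39 to 5.45 in GMP-derived lines) and was not called. H2-Ob, H2-Ab1 and H2-Aa are neighbours on chromosome 17. Of the dendritic cell genes, which share this function, none of 10 was called. The call of H2-Ab1 ended in 4 of 18 alternatives and that of H2-Ob without line B6-3 of LT-HSC origin (adjusted p = 0.0947).

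Granulocyte genes of other branches gave 2 calls, both higher in LT-HSC-derived lines. Of 12 mast cell and basophil genes 1 was called, Cpa3 (mast cell carboxypeptidase), at 8.16 and 8.03 in LT-HSC-derived lines, against 6.77, 4.16, 4.38 and 4.22 in GMP-derived lines (3.21 ± 0.78, adjusted p = 0.028). GMP-derived line B6-2 stood above the other GMP-derived lines for Cpa3. The basophil protease Mcpt8, at 10.04 and 10.22 in LT-HSC-derived and 7.63 to 8.93 in GMP-derived lines, just missed (adjusted p = 0.0517), and the list's median was 0.46. The mast cell protease genes Tpsab1 (-0.13), Tpsb2 (-0.02) and Mcpt4 (0.07) and the factor Mitf (-0.11) lay near 0. Of 6 eosinophil genes 1 was called, Epx (eosinophil peroxidase), at 6.10 and 7.57 in LT-HSC-derived and 4.76 to 5.78 in GMP-derived lines (1.64 ± 0.39, adjusted p = 0.0233). Its difference was 0.90 without line B6-3 of LT-HSC origin (adjusted p = 0.766). The interleukin 5 receptor gene Il5ra was at 0.02. Prg2, the eosinophil major basic protein, was at 8.66 and 10.23 in LT-HSC-derived lines, against 8.51, 6.04, 5.35 and 5.64 in GMP-derived lines, and did not pass (adjusted p = 0.0927). The calls of Cpa3 and Epx ended in 8 and 5 of 18 alternatives. The mean of the mast cell and basophil genes was 6.29 to 6.35 per array in LT-HSC-derived and 5.18 to 5.92 in GMP-derived lines, and that of the eosinophil genes 6.00 to 6.87 and 4.88 to 5.68. The part of such cells in the other results was not tested.

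Neutrophil genes were read in an early and a late list. Of 12 primary granule genes none was higher and 1 lower (median -0.00), the protease inhibitor Cst7 at 9.81 and 9.17 in LT-HSC-derived lines and 10.18 to 10.43 in GMP-derived lines (-0.81 ± 0.16, adjusted p = 0.00385). Without line B6-3 of LT-HSC origin Cst7 came to -0.49 (adjusted p = 0.42). Neutrophil elastase, Elane, was at 9.82 and 9.63 in LT-HSC-derived lines, against 10.30, 10.42, 10.48 and 10.38 in GMP-derived lines, and did not pass (-0.67 ± 0.18, adjusted p = 0.0616). The serine protease gene Prss57 was at 7.35 and 7.24 in LT-HSC-derived and 6.67 to 6.90 in GMP-derived lines and did not pass either (0.47 ± 0.16, adjusted p = 0.199). The groups do not overlap for these 2 genes, which point in opposite directions. Of 19 late neutrophil genes 1 was higher, Chil3, and the median was 0.36. The secondary granule gene Ngp was at 10.40 and 10.87 in LT-HSC-derived and 8.69 to 9.91 in GMP-derived lines (1.60 ± 0.64, adjusted p = 0.309), and Camp at 8.18 and 6.89 in LT-HSC-derived and 6.93 to 8.23 in GMP-derived lines, with no shared order. None of 18 monocyte and macrophage genes was called (median -0.10).

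Erythroid genes gave 2 higher of 12, the carbonic anhydrases Car1 (7.21 and 7.50 in LT-HSC-derived, 5.34 to 5.95 in GMP-derived lines, 1.60 ± 0.33, adjusted p = 0.0062) and Car2 (5.99 and 6.36 in LT-HSC-derived, 4.70 to 5.45 in GMP-derived lines, 1.19 ± 0.31, adjusted p = 0.0423). Car2 lost its call in 7 of 18 alternatives, and Car1 without line B6-3 of LT-HSC origin (adjusted p = 0.211). Of 11 megakaryocyte genes 1 was lower, the protease-activated receptor F2rl2 (-0.48 ± 0.12, adjusted p = 0.0284, lost in 7 of 18 alternatives), while the median was 0.43.

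Among genes of epithelial-mesenchymal transition, 2 of 24 were called, both higher (median 0.01). They were Zeb1 and Cdh1. Cdh1, the epithelial cadherin that Zeb1 is known to repress in other cells, was at 6.87 and 6.97 in LT-HSC-derived lines, against 6.24, 5.96, 5.77 and 5.92 in GMP-derived lines (0.95 ± 0.19, adjusted p = 0.00565). Its call ended without either LT-HSC-derived array (adjusted p = 0.0502 and 0.174). The related repressor Zeb2 was at 8.63 and 8.64 in LT-HSC-derived and 8.997 to 9.24 in GMP-derived lines (-0.48 ± 0.13, adjusted p = 0.0546), and the mesenchymal genes Vim (-0.05 ± 0.15) and Cdh2 (-0.03 ± 0.11) were not called.

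Migration and invasion genes gave 3 higher of 16 (median 0.17). The integrin alpha 6 gene Itga6 was at 9.05 and 9.25 in LT-HSC-derived lines, against 8.10, 8.35, 8.21 and 8.16 in GMP-derived lines (0.94 ± 0.11, adjusted p = 5.96e-06), and held in every alternative. The tetraspanin Cd9 (0.96 ± 0.18) and the integrin alpha 4 gene Itga4 (0.55 ± 0.13) were also higher, and both lost their call without line B6-3 of LT-HSC origin (adjusted p = 0.207 and 0.63). Of 17 cytokine receptors Flt3 was higher and the interferon gamma receptor chain Ifngr1 lower (9.25 and 9.29 in LT-HSC-derived, 9.71 to 10.20 in GMP-derived lines, -0.62 ± 0.13, adjusted p = 0.00658). The call of Ifngr1 ended in 4 of 18 alternatives.

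Of 34 blood transcription factors 3 were higher and none lower (median 0.10), namely Id2, Mycn and Sox4. Sox4, a factor of immature cells, was at 6.42 and 6.62 in LT-HSC-derived and 5.83 to 5.93 in GMP-derived lines (0.63 ± 0.09, adjusted p = 2e-04). Mycn was at 6.28 and 6.34 in LT-HSC-derived and 5.41 to 5.74 in GMP-derived lines (0.71 ± 0.15, adjusted p = 0.0121), lost in 3 of 18 alternatives. Of 8 GIMAP genes, small GTPases of blood cells, Gimap6 was higher (6.68 and 7.04 in LT-HSC-derived, 5.75 to 5.93 in GMP-derived lines, 1.00 ± 0.14, adjusted p = 0.000129). Of 16 inflammatory genes Il6, the cytokine interleukin 6, was higher, at 6.50 and 7.005 in LT-HSC-derived lines, against 4.78, 3.17, 3.25 and 3.85 in GMP-derived lines (2.99 ± 0.69, adjusted p = 0.0189), and lost its call in 5 of 18 alternatives. Of 16 immediate early genes, the zinc finger factor Klf6 was higher by 0.59 ± 0.15 (adjusted p = 0.0372), ended by 7 of 18.

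Among growth genes, of 21 proliferation genes only the mitotic activator Cdc20 was called, lower by -0.35 ± 0.09 (adjusted p = 0.0483), and 12 of 18 alternatives ended it. Of 19 ATF4 stress genes, the serine synthesis enzyme Psat1 was lower by -0.34 ± 0.09 (adjusted p = 0.0467), ended by 10 of 18. None of 14 MYC and nucleolar genes was called (median -0.04). Hprt, a housekeeping enzyme gene, was at 10.62 and 10.81 in LT-HSC-derived and 10.67 to 10.77 in GMP-derived lines with dox, while it was at 7.51 to 7.95 in LT-HSC-derived and 7.31 to 7.92 in GMP-derived lines without dox.

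The same origins were next compared without dox, in arrays that share none with the comparison above but come from the same named lines. There, 1355 genes were called (6.8%), 702 higher (3.52%) and 653 lower (3.28%) in LT-HSC-derived lines. Of the 233 genes higher with dox, 136 were also called higher without dox (58.4% of them and 19.4% of the 702). Of the 188 lower with dox, 94 were called lower without dox (14.4% of the 653). Calls in opposite directions were made for 5 genes that were higher and 1 that was lower with dox. Among the 421 genes 91.2% had the same sign without dox, against 58.0% of all genes. Across the 421 genes the differences in the 2 dox states correlated with r = 0.869 (0.589 over all genes), a description over genes that share arrays and are not independent.

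Scin was as different without dox (4.14 ± 0.25) as with it, and so were Flt3 (2.46 ± 0.29), Zeb1 (2.01 ± 0.15), Tjp1 (2.68 ± 0.31) and Cd96 (1.91 ± 0.20). Among the lower genes, Slc36a4 (-2.36 ± 0.20), Olr1 (-2.57 ± 0.26), Penk (-2.53 ± 0.22), Aff2 (-1.90 ± 0.24) and Ncam1 (-1.74 ± 0.13) were called without dox too. None of these 10 genes passed the test of the difference between dox states.

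That test, the interaction of origin and dox, called 46 genes (0.231%), and 18 of them were among the 421. As a signed value, the origin difference was higher with dox than without in 32 and lower in 14. The plot of levels in both dox states shows the leading ones. Clec4b2 averaged 8.26 in LT-HSC-derived and 5.47 in GMP-derived lines with dox, and 8.68 and 8.999 without dox (interaction 3.11 ± 0.40, adjusted p = 0.000691). The origins thus differed for Clec4b2 with dox, where GMP-derived lines were low, while the difference without dox did not pass (-0.32 ± 0.28, adjusted p = 0.657). Chil3 had the same form, with averages of 9.94 and 7.56 with dox and 10.59 and 11.01 without (interaction 2.79 ± 0.51, adjusted p = 0.014). Il18rap, likewise, averaged 8.72 and 7.13 with dox and 9.06 and 8.72 without (interaction 1.24 ± 0.21, adjusted p = 0.00884), while its neighbour Il18r1 differed in both states (2.66 ± 0.32 without dox, interaction adjusted p = 0.708).

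**Figure D3:**
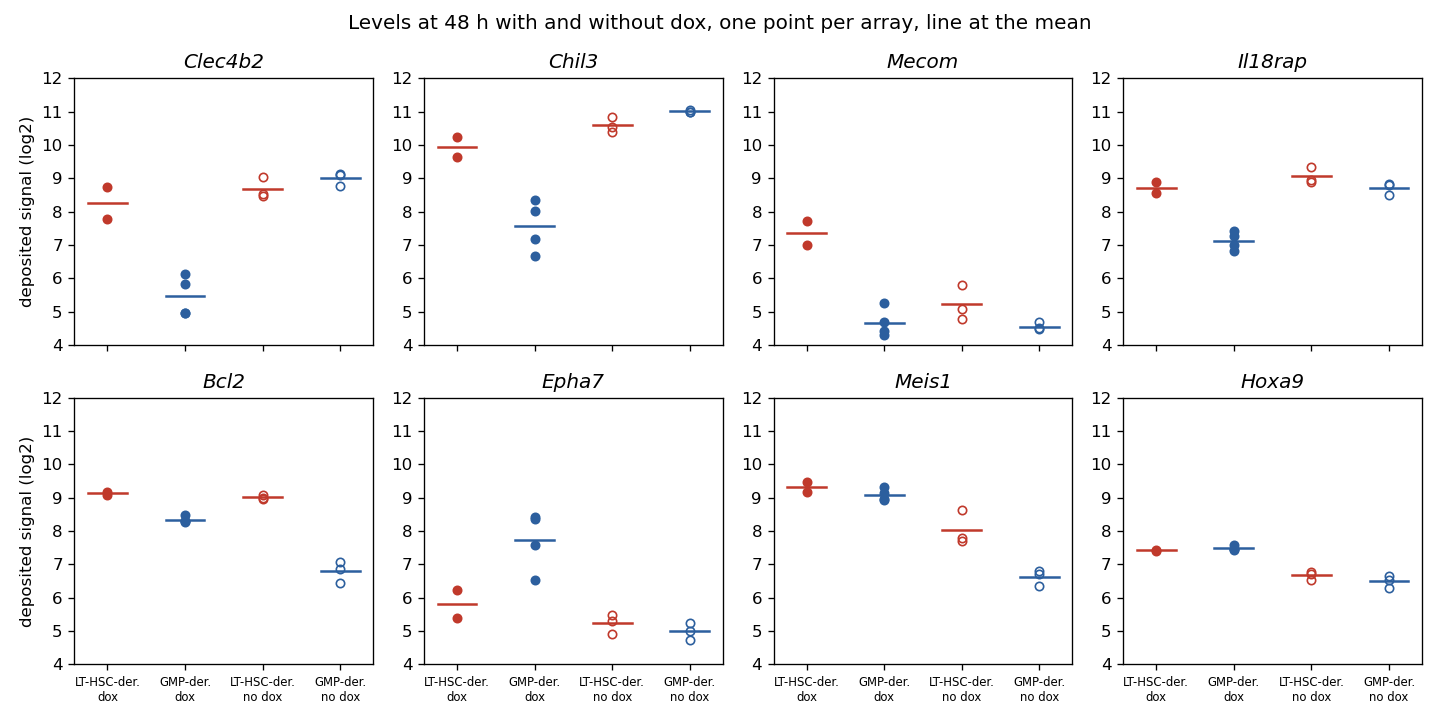
Deposited signal (log2) of 8 genes at 48 h in LT-HSC-derived (red) and GMP-derived (blue) lines with dox (filled) and without dox (open), 1 point per array and a line at each mean. Clec4b2, Chil3 and Il18rap are low in GMP-derived lines with dox alone, Mecom is high in LT-HSC-derived lines with dox alone, and Bcl2 is lowest in GMP-derived lines without dox. Hoxa9 and Meis1 lie close together in the 2 origins with dox.

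Mecom took another form. It averaged 7.37 in LT-HSC-derived lines with dox and 4.67 in GMP-derived lines with dox, and 5.22 and 4.55 without dox (0.67 ± 0.24 without dox, adjusted p = 0.105, interaction 2.03 ± 0.35, adjusted p = 0.0109). The LT-HSC-derived lines kept with dox for the 72 h arrays had 7.16, 7.27 and 7.88, against 7.01 and 7.72 at 48 h. The value of 7.88 was that of line B6-1, which has no LT-HSC-derived array with dox at 48 h. Bcl2 went the other way, with averages of 9.14 and 8.34 with dox and 9.01 and 6.79 without (0.80 with and 2.23 ± 0.11 without dox, interaction -1.43 ± 0.16, adjusted p = 8.76e-05). Epha7, an ephrin receptor, was at 5.41 and 6.25 in LT-HSC-derived and at 8.43, 8.37, 6.55 and 7.59 in GMP-derived lines with dox, a difference of -1.91 ± 0.32 that was 0.25 ± 0.30 without dox (interaction -2.15 ± 0.44, adjusted p = 0.0344). The complement receptor gene C5ar1 differed only without dox among the tests run (0.07 ± 0.28 with and -1.96 ± 0.26 without dox, interaction 2.03 ± 0.38, adjusted p = 0.0183).

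Some of these interaction calls rested on few arrays. Without line B6-3 of LT-HSC origin the number of calls came to 8, and those of Chil3 (adjusted p = 0.169) and Mecom (adjusted p = 0.158) were lost, as was that of C5ar1 (adjusted p = 0.169). Over the 23 alternatives Epha7 lost its interaction call in 11 (adjusted p up to 0.248), C5ar1 in 5 (up to 0.245), Chil3 in 3 and Mecom in 2, while those of Clec4b2 and Bcl2 held in all 23. The difference of Epha7 with dox lost its call in 2 of 18 alternatives (adjusted p up to 0.122).

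Gene lists were also counted without dox, where the share of all genes called higher was 3.52%, against 1.17% with dox. Of 12 mast cell and basophil genes 7 were higher in LT-HSC-derived lines without dox, against 1 with dox, and of 8 MHC class II genes 6 against 3. No member of either list passed the interaction test. Late neutrophil genes were lower for 6 of 19 without dox (median -0.61), against none lower and 1 higher with dox (median 0.36), and 2 of them, Chil3 and Cd177, passed the interaction test. The mean of the late neutrophil genes was 7.62 to 7.75 per array in LT-HSC-derived and 7.11 to 7.30 in GMP-derived lines with dox, and 7.94 to 8.49 and 8.90 to 9.19 without dox. Of 14 MYC and nucleolar genes 11 were higher without dox (median 0.41) and none with dox (median -0.04), but no member passed the interaction test. Meis1 differed by 1.42 ± 0.18 without dox (adjusted p = 1.65e-05) and by 0.23 with dox, with an interaction of -1.19 that just missed (adjusted p = 0.0575).

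The origin difference of the lines was set beside that of the normal cells, sorted LT-HSC minus sorted GMP, where 3043 genes were higher (15.3%) and 3359 lower (16.8%). Of the 233 genes higher in LT-HSC-derived lines with dox, 154 were higher in sorted LT-HSC (66.1% of them and 5.06% of the 3043) and 33 lower (14.2% and 0.982% of the 3359). Of the 188 lower genes, 77 were lower in sorted LT-HSC (41.0% and 2.29% of the 3359) and 37 higher (19.7% and 1.22% of the 3043). The sign was shared by 69.6% of the 421 genes (79.4% of the higher and 57.4% of the lower ones), against 57.3% of all genes. The differences of lines and sorted cells correlated with r = 0.35 over the 421 genes and 0.217 over all genes, again as a description over genes.

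**Figure D4:**
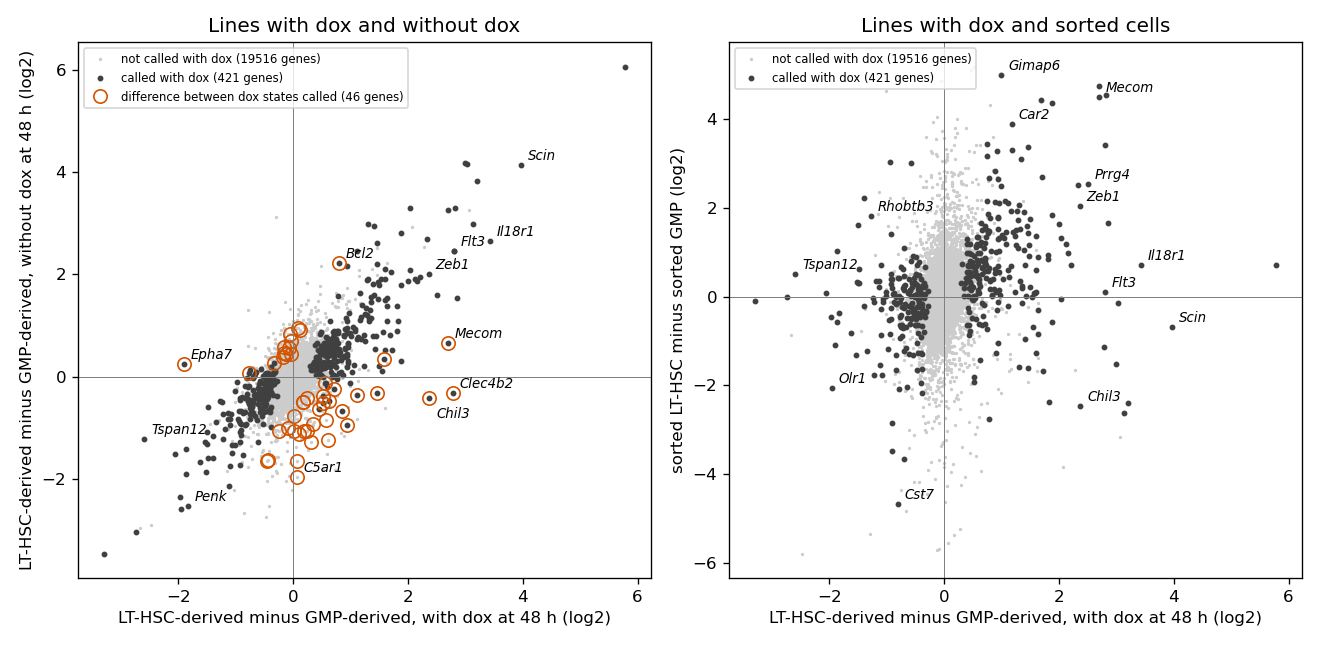
Difference at 48 h with dox between LT-HSC-derived lines and GMP-derived ones (horizontal axis, log2) against the same origin difference without dox (left) and against sorted LT-HSC minus sorted GMP (right). Dark points are the 421 genes called with dox, and orange rings mark the 46 genes whose difference depended on dox. Most dark points lie near the diagonal on the left, while on the right they spread over all quadrants.

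Mecom, Zeb1, Prrg4, Tjp1 and Cd96 had the same direction in sorted cells, where sorted LT-HSC were higher by 4.50, 2.03, 2.53, 2.52 and 1.19. Zeb1 averaged 7.30 in LT-HSC-derived and 4.93 in GMP-derived lines with dox, and 8.43 in sorted LT-HSC and 6.40 in sorted GMP. Gimap6 averaged 6.86 in LT-HSC-derived and 5.86 in GMP-derived lines, and 10.45 in sorted LT-HSC and 5.45 in sorted GMP. Olr1 and Cst7 were lower in sorted LT-HSC as well (-2.06 and -4.68).

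Other leading genes of the lines did not follow the sorted cells. Flt3 averaged 6.24 in sorted LT-HSC and 6.13 in sorted GMP (0.11, adjusted p = 0.812). Scin was lower in sorted LT-HSC, at 3.99, than in sorted GMP, at 4.68 (-0.69, adjusted p = 0.0146), while it was at 8.18 to 8.58 in LT-HSC-derived lines with dox. Chil3 and Clec4b2 were lower in sorted LT-HSC by -2.45 and -1.13, and Cpa3 by -2.39. Rhobtb3 and Rhoj were higher in sorted LT-HSC by 1.81 and 1.02 although both were lower in LT-HSC-derived lines.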

How the data were processed

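The series holds 26 arrays of a mouse Affymetrix gene array. Total RNA was amplified to cDNA and labelled per the labels' protocols. The authors deposited signals per probe set on the log2 scale, and the submitters' processing notes name limma and R 3.1.1. The sources used here do not give the background correction, the normalization or the genome build. Array medians lay between 5.81 and 5.91. Precision is limited by how many arrays there are.

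Of 34760 probe sets 21640 carried 1 gene symbol, 1321 several and 11799 none. RefSeq (GRCm38.p6) matched 21553 and served for names and gene order. Each of 19937 genes was read from its probe set with the highest mean, with no filter on dim signals, and 954 genes had more than 1. All 26 arrays entered 1 linear model with a mean for each of 8 groups from the labels (R 4.3.3, limma 3.58.1, functions lmFit, contrasts.fit and eBayes), and genes were called at a 2-sided Benjamini-Hochberg adjusted p under 0.05. Differences are LT-HSC-derived minus GMP-derived or, where named, sorted LT-HSC minus sorted GMP, with the standard error of the fit. The labels name 6 arrays of the main comparison.

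Named genes were up to 12 of the largest differences in each direction among genes called in the full fit and without each of the 6 arrays, with groups that do not overlap and the higher mean above the median of all values (5.86). To these were added up to 4 called genes per list, up to 5 of the interaction, and Hoxa9, Meis1, Zeb1, Erg, Mecom, Tcf4, Mllt3, Kmt2a, Hprt and sex-linked genes. Predicted genes and similar symbols were left out. Other genes are named as markers, neighbours, other list members or genes outside the lists and were chosen after their values were seen. The genes and lists were chosen with earlier results of these data known. The fit was tested on simulated data. Alternatives covered the arrays in the fit, line names as a block, scaling, a dim filter, priors, array weights, probe sets and single arrays left out.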

Additional observations from a re-analysis of the deposited data

Results flagged for a closer look

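Among the GMP-derived lines with dox at 48 h, a single array stood apart from the other 3 for 5 of 60 named genes. Chance gives this for about 1 in 20 genes. Tspan12 was at 7.97 in line B6-1, against 6.58 to 6.69. H2-Aa was at 4.23 in line B6-1, against 4.72 to 4.74. Cpa3 was at 6.77 in line B6-2, against 4.16 to 4.38. Car1 was at 5.34 in line B6-3, against 5.86 to 5.95. Hoxa9 was at 7.57 in line B6-2, against 7.44 to 7.46.

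As a signed value, the origin difference with dox was above that without dox for Clec4b2 by 3.11 log2, for Chil3 by 2.79, for C5ar1 by 2.03 (2.0284) and for Mecom by 2.03 (2.0262). It was below that without dox for Epha7 (-2.15) and Bcl2 (-1.43). Each passed the interaction test (limma, adjusted p of 0.000691, 0.014, 0.0183, 0.0109, 0.0344 and 8.76e-05 in that order of genes). Apart from its sign, the difference of C5ar1 was larger without dox (-1.96, against 0.07 with dox). That of Epha7 was larger with dox (-1.91, against 0.25 without dox). The interaction call of Epha7 was lost in 11 of 23 alternatives, that of C5ar1 in 5, of Chil3 in 3 and of Mecom in 2.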

How the results depend on the processing

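Of 18 alternatives for the comparison with dox, 14 gave a count of calls within 1.5 times of 421. A similar count need not hold the same genes: with only the 2 groups fitted it was 303, of which 237 were among the 421. The count was 264 with the lines named in both origins, of which 228 were among the 421. It was 830 with the LT-HSC-derived arrays of 72 h against the GMP-derived arrays of 48 h, of which 368 were among the 421. Leaving out 1 array gave 110 to 355, with 237 without line B6-2 and 110 without line B6-3 of LT-HSC origin. Without dox the count was 595 when only these groups were fitted and 743 to 1149 with 1 array left out (743 without LT-HSC-derived B6-1, 880 without GMP-derived B6-3). The interaction gave 21 when only its groups were fitted, 87 with array weights, 12 with the lines named in both origins and 8 to 55 with 1 array left out. It came to 18 and 8 without LT-HSC-derived B6-2 and B6-3 with dox, 28 without GMP-derived B6-2 with dox, 28 without LT-HSC-derived B6-1 and 29 without GMP-derived B6-3 without dox. The counts for sorted cells stayed between 5870 and 6439 under all 16 alternatives. With line names as a replicate block, 561 genes were called with dox and 375 of the 421 remained. Among named genes the block ended the calls of Cdc20 and Psat1 with dox. The names were not treated as pairs because the labels do not say that a shared name marks 1 animal. The deviations of same-named lines correlated by 0.0482 and 0.0133 with dox and by 0.0184 and 0.1729 without dox (B6-2 and B6-3). With 2 LT-HSC-derived arrays the deviations mirror each other, so the values with dox cannot decide on pairing.

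Of 52 named genes called with dox, 30 kept their call in all 18 alternatives. The other 22 lost it in at least 1, 21 of them without line B6-3 and 16 without line B6-2 of LT-HSC origin. Uncalled values near 0 changed sign: Tcf4 to -0.0457 with the 72 h arrays and -0.0788 to 0.2509 with 1 array left out, Hprt to -0.0052 with lines as a random block, -0.0068 with median centring, -0.0214 with the 72 h arrays and -0.0814 to 0.1089 with 1 array left out, and C5ar1 to -0.0415 with the replicate block and -0.0736 to 0.2113 with 1 array left out. The causes were not tested. Having 2 LT-HSC-derived arrays, and signals below the array medians, limits the sizes given.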
